A study of Mus musculus with 12 samples.

Results

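Cell lines named ITF1, ITM and Rel (3 lines) were established from B16F10 melanoma tumors that had grown back after immunotherapy, and their RNA was set against that of untreated B16F10 cells (WT 1, WT 2 and WT 3). B16F10 is a pigmented melanoma cell line of C57BL/6 mice. For the lines, B16F10 cells were injected subcutaneously into mice of 6 weeks, the tumors were treated after several days, and tumor cells sorted from the relapses were grown to confluency before RNA was extracted. WT cells were kept in complete DMEM and received no treatment. These 6 libraries are part of a series of 12, whose other groups were B16F10 cells incubated with T-cell-derived lysosomes (Lyso, 3 libraries) and cells sorted from relapsed tumors with RNA taken at once (Tumor, 3 libraries). Each line was 1 library, the labels did not say which immunotherapy preceded which line, and they did not say whether the libraries of a group came from separate cultures. The p-values therefore rest only on a spread between libraries. For all lines against WT, that spread came from all 4 groups. For each line against WT, it came from WT, Lyso and Tumor. For differences within the lines or within WT, it came from the Lyso and Tumor replicates alone.

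Melanoma cells that come back after an immune attack can differ from their parents by genetic selection, by a stable change of state, or not at all, and culture outside the mouse removes the signals of the tumor. Pigment genes under the factor MITF define the melanocytic state, MHC class I molecules display antigen to T cells, and interferon raises the latter. Hypoxia-responsive genes of glycolysis, feedback regulators of ERK signaling and stress genes under ATF4 are known to shift with the conditions and the genetics of melanoma cells.

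All 6 libraries carried melanoma RNA. Sox10, the neural crest factor that drives Mitf, lay between 530 and 720 CPM (the count scaled to a common library size) in every library. Tyrp1, a melanosome enzyme and the target of the antibody used in the study, lay between 8883 CPM in WT 3 and 13427 CPM in Rel. Of the markers of cells that a sort from a tumor could carry, 10 of 10 keratinocyte genes, 13 of 20 leukocyte genes, 6 of 10 endothelial genes and 4 of 10 fibroblast genes were at 3 counts or fewer in every library. The summed leukocyte markers came to 17.4, 23.8 and 32.7 CPM in WT and to 49.4, 15.7 and 18.6 CPM in ITF1, ITM and Rel, most of it from Cd68 and Csf1r, which WT held too. Fibroblast markers summed to 30.6 to 40.8 CPM in WT and 19.7 to 31.8 CPM in the lines, and endothelial markers to 13.6 to 26.4 and 9.57 to 33.4 CPM. The endothelial gene Vwf was higher in Rel, at 23.6 CPM against 2.53 to 10.2 CPM in WT (adjusted p = 0.00745, edgeR), while the endothelial receptor Kdr had 0 counts in all 6 libraries. The part of other cells in the results was not tested. The pan-leukocyte gene Ptprc had at most 6 counts, in ITM, and the T-cell genes Cd3d, Cd3e and Gzmb had 0 counts in all 6 libraries. Counts on genes were 12749399, 16402629 and 15087577 in the lines, close to the 16384021 of WT 3, while WT 1 and WT 2 held 1667398 and 2350129.

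The first question was what the 3 lines had in common against WT. Very little passed the test. Of 54232 gene rows 14924 were tested, and 2 were higher and 4 lower in the lines, 0.0402% of the genes tested. A gene counted as called when edgeR's quasi-likelihood test, fitted to all 12 libraries, gave an adjusted p (Benjamini-Hochberg) under 0.05 with a log2 fold change beyond 1. An unadjusted p under 0.05 was found for 1636 genes. For 1585 genes, or 10.6%, the 3 lines all lay above or all lay below the 3 WT libraries.

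Capn6 (chromosome X, 143802231 to 143827414, GRCm38), an atypical calpain that lacks protease activity and binds microtubules, rose in the lines. It had 4.53, 3.38 and 1.89 CPM in WT and 14.44, 15.04 and 25.04 CPM in ITF1, ITM and Rel. All lines lay above all WT libraries, with means of 3.26 ± 1.32 (SD, n = 3) and 18.2 ± 5.96 CPM (SD, n = 3). The log2 fold change was 2.82 with a standard error of 0.32 (adjusted p = 0.0144, edgeR).

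Itgb5 (chromosome 16, 33829665 to 33949338), the integrin subunit that pairs with alpha V to bind vitronectin, fell. It had 61.7, 34.6 and 40.2 CPM in WT and 9.37, 9.11 and 4.49 CPM in ITF1, ITM and Rel. The groups lay far apart, at 45.5 ± 14.3 against 7.65 ± 2.75 CPM (SD, n = 3 each), a log2 fold change of -2.55 with a standard error of 0.31 (adjusted p = 0.0144, edgeR). Of the 19 integrins tested, no other passed this comparison.

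Tns1 (chromosome 1, 73910231 to 74124449), which encodes tensin, a link between integrins and actin, also fell. WT libraries had 10.8, 5.91 and 10.3 CPM and the lines 2.46, 2.46 and 3.15 CPM, again without overlap, with a log2 fold change of -1.76 and a standard error of 0.23 (adjusted p = 0.0217, edgeR). Of 21 focal adhesion genes tested, Tns1 alone passed.

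Tgfb3 (chromosome 12, 86056745 to 86079041), a TGF-beta ligand, had 25.5, 24.5 and 22.5 CPM in WT and 11.7, 9.47 and 12.1 CPM in ITF1, ITM and Rel. Both groups were tight, at 24.1 ± 1.53 and 11.1 ± 1.44 CPM (SD, n = 3 each). The log2 fold change was -1.11 with a standard error of 0.15 (adjusted p = 0.0256, edgeR), and Tgfb3 was the 1 gene of 26 in the TGF-beta list that passed.

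Masp1 (chromosome 16, 23449417 to 23520815), a protease that starts the lectin pathway of complement, was nearly equal in the lines, at 10.7, 10.4 and 10.6 CPM, and uneven in WT, at 31.1, 50.2 and 121 CPM. Its log2 fold change was -2.73 with a standard error of 0.39 (adjusted p = 0.0307, edgeR). WT libraries also differed among themselves in Masp1 (adjusted p = 0.000787, edgeR).

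**Figure D1:**
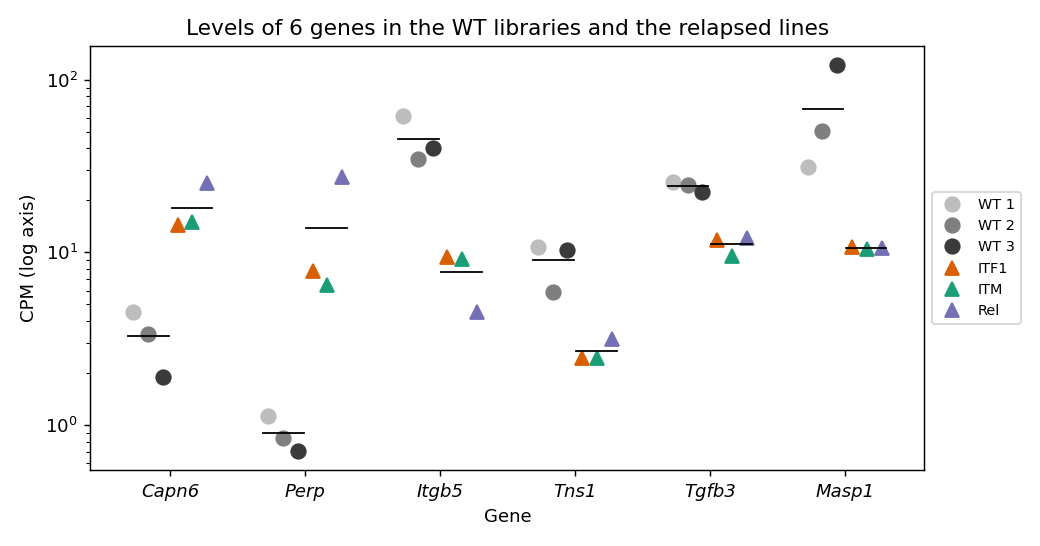
CPM (log axis) of 5 genes that passed the comparison of the relapsed lines with WT, and of Perp, in each of the 6 libraries. Circles are WT libraries, triangles are the lines, and bars are the means of 3 libraries. The lines lie wholly above WT for Capn6 and Perp and wholly below for the other 4. Perp was under 3 counts in WT 1 and WT 2.

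These calls were made with a spread shared over 4 groups and did not hold everywhere. With WT 3 left out, 0 genes were called (edgeR, 1487 at an unadjusted p under 0.05), with the 6 libraries thinned to equal depth 0 (1510 unadjusted), and with only the 6 libraries in the fit 0 (642 unadjusted), while DESeq2 called 48 higher and 54 lower. Without ITM the counts were 78 higher and 36 lower, without ITF1 40 and 43, and without Rel 1 and 2. Without WT 1 they were 8 and 19. The direction of each of the 5 genes was kept in every alternative run for it, Tns1 having no value at a mean of at least 10 CPM.

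Beyond the called genes, 8 more were named on each side, ranked by p. Only genes with at least 1 CPM and no overlap between the lines and WT were eligible. Their separation was thus a condition of the choice and not a result, and 10.6% of all genes tested showed it. Perp, a desmosome and apoptosis protein under p53, had 1.13, 0.844 and 0.708 CPM in WT and 7.76, 6.47 and 27.2 CPM in ITF1, ITM and Rel, with an adjusted p of 0.0677 (edgeR). Its values in WT 1 and WT 2 were under the floor of 3 counts. Fam53b had 292 to 350.0 CPM in WT and 479 to 660.2 CPM in the lines (adjusted p = 0.059, edgeR). Ptgds, the prostaglandin D2 synthase, had 397 to 513 CPM in WT and 727 to 967 CPM in the lines (adjusted p = 0.0677, edgeR).

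Aff3, Cers6, Map7d2, Olfm2 and Tmcc3 completed the upper side by the same rule, with adjusted p-values from 0.059 for Aff3 to 0.0829 for Tmcc3 (edgeR). Cers6, a ceramide synthase, had 21.5 to 29.6 CPM in WT and 43.9 to 59.1 CPM in the lines. On the lower side stood Sdc3, Gm26716, Zfp862-ps, Ptp4a3, Klf4, Thbs3, Cacng8 and Map1a, with adjusted p-values between 0.059 for Sdc3 and 0.0905 for Map1a (edgeR). Sdc3 encodes a syndecan, and the exons of Gm26716 lie antisense to it over 100% of their length, so that without a stated strand setting their reads cannot be told apart. Klf4, a zinc finger factor of the immediate early list, had 8.44 to 15.8 CPM in WT and 3.46 to 6.05 CPM in the lines.

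The second question was what each line did on its own. Each line was compared with the same 3 WT libraries, so the 3 comparisons share their controls, and the single library of a line was assumed to vary like the replicates of the other groups. Rel had the most calls with all libraries in the fit, with 226 genes higher (1.51% of those tested) and 78 lower (0.523%). ITF1 had 129 higher (0.864%) and 70 lower (0.469%). ITM had 20 higher (0.134%) and 27 lower (0.181%). Without WT 1, whose levels stood apart from the other WT libraries, the totals were 432 genes for ITF1, 557 for ITM and 890 for Rel. Without WT 3 they were 253, 11 and 202, so that ITF1 had the most calls, and without WT 2 ITM had 93.

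In ITF1 the genes of glycolysis and the hypoxia response rose together. Of 29 tested, 17 were called higher and 0 lower in ITF1, against a background of 0.864% higher, while Rel had 2 higher (Aldoc and Pfkp) and ITM had 0 higher and 1 lower (Eno2). In all 17, ITF1 was the highest of the 6 libraries. Their choice as higher than WT favored this rank over the WT libraries, so it is no further result against WT. The count stayed between 17 and 21 with any WT library left out. Over all 29 the median log2 fold change was 1.36 in ITF1, 0.24 in Rel and -0.06 in ITM, while over all genes tested the medians were 0.00, 0.00 and -0.01.

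Slc16a3, the lactate exporter MCT4, had 26.0, 14.4 and 8.85 CPM in WT, 238 CPM in ITF1, 5.03 CPM in ITM and 17.9 CPM in Rel. Its log2 fold change in ITF1 was 4.11 with a standard error of 0.34 (adjusted p = 0.000327, edgeR). Bnip3, a mitophagy receptor induced by low oxygen, had 23.8, 16.5 and 14.9 CPM in WT and 235 CPM in ITF1, against 9.82 CPM in ITM and 34.7 CPM in Rel (adjusted p in ITF1 = 8.43e-05, edgeR). ITF1 stood alone in both genes.

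Car9, carbonic anhydrase IX, was even in WT at 5.66, 5.49 and 5.78 CPM and reached 67.6 CPM in ITF1, with 3.89 CPM in ITM and 10.6 CPM in Rel. Pdk1, a kinase that inhibits pyruvate dehydrogenase, had 28.3, 16.5 and 14.5 CPM in WT, 121 CPM in ITF1, 11.8 CPM in ITM and 41.2 CPM in Rel. For Car9 the adjusted p in ITF1 was 0.00137 and for Pdk1 it was 0.000889 (edgeR). Core enzymes moved less. Pgk1 had 362 to 464 CPM in WT and 1185 CPM in ITF1 (log2 fold change 1.57, standard error 0.23, adjusted p = 0.00776, edgeR), and Slc2a1, the glucose transporter GLUT1, had 49.5 to 57.0 CPM in WT and 153 CPM in ITF1. Vegfa, a target of the same pathway, was not called in ITF1: WT 1 had 197 CPM and the other WT libraries 17.3 and 18.1 CPM, with 96.3 CPM in ITF1.

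**Figure D2:**
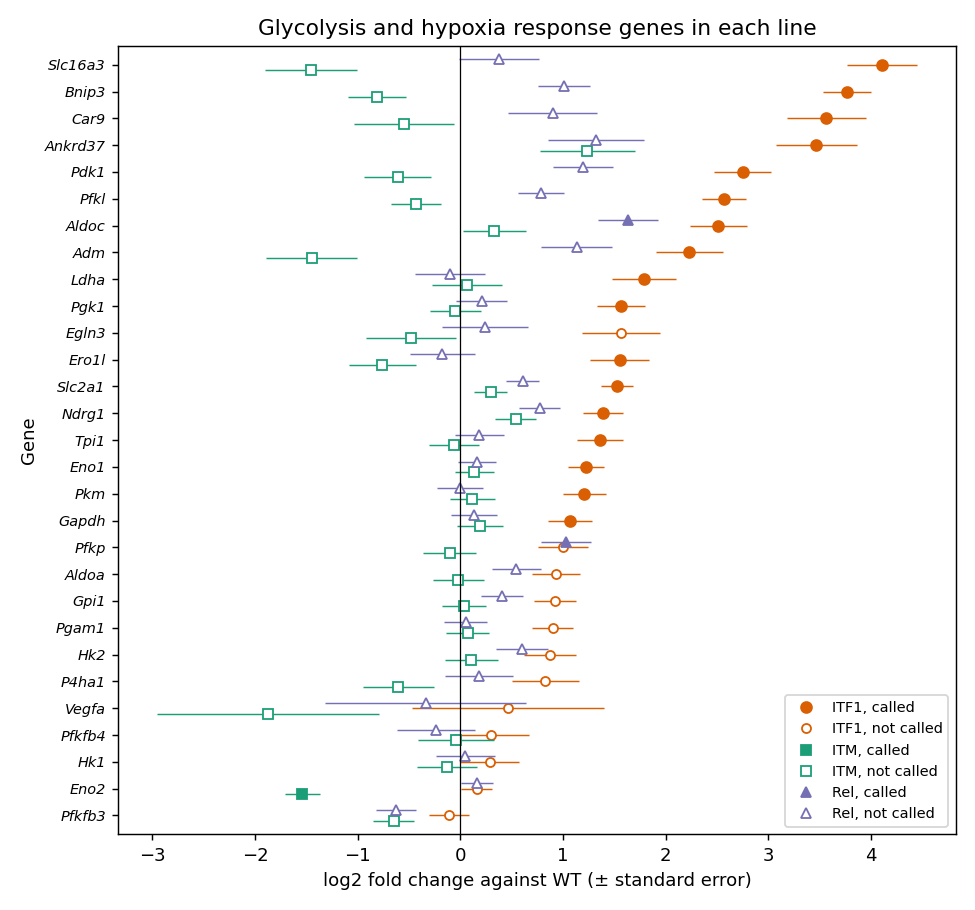
Log2 fold change against WT with its standard error for the 29 tested genes of the glycolysis and hypoxia list in each relapsed line. Filled symbols passed the test and open ones did not; 17 ITF1 points are filled, from Slc16a3 at 4.11 down to Gapdh at 1.07, while 2 points of Rel and 1 of ITM are filled.

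The letters ACGTG are the core of the site that hypoxia-inducible factors bind. On either strand of the 250 bases before the first RefSeq start listed for each gene (GRCm38.p6), they occurred in 7 of the 15 called genes with a promoter in the RefSeq table (46.7%), in 5 of 12 genes of the list that were not called (41.7%) and in 2301 of 10464 genes tested (22.0%). The stretches around the first match are shown for 4 of the genes described above, written along the gene's own strand, with the core in capitals (CACGT is the core on the other strand). These matches are letters only, and no binding was measured.
Slc16a3 (chr11:120949030-120949054, plus strand): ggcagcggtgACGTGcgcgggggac
Bnip3 (chr7:138909600-138909624, minus strand): gcacgcgccgCACGTgccacacgct
Car9 (chr4:43506998-43507022, plus strand): atttccgatgCACGTacagcccgtc
Pgk1 (chrX:106186940-106186964, plus strand): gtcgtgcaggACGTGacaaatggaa

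Of 14 ERK feedback genes, which are switched on by ERK and mostly damp it, 2 were called lower in ITF1 (Etv5 and Spry4) and 0 higher, against a background of 0.469% lower. Etv5, an ETS factor, had 6.79, 11.8 and 11.6 CPM in WT, 2.23 CPM in ITF1, 15.2 CPM in ITM and 10.98 CPM in Rel, and fell in ITF1 (log2 fold change -2.25, standard error 0.32, adjusted p = 0.00595, edgeR). Spry4, a Sprouty inhibitor, had 3.396, 5.07 and 4.54 CPM in WT and 0.614 CPM in ITF1 (adjusted p = 0.0172, edgeR). Dusp6, the phosphatase of ERK, had 87.0 to 101 CPM in WT, 59.4 CPM in ITF1 and 195 CPM in Rel, where it rose (log2 fold change 1.03, standard error 0.15, adjusted p = 0.00552, edgeR). Of the 14 genes tested, 8 differed between the lines, where 10.3% of all genes did, ITF1 being the lowest line in 7 of the 8. Between the WT libraries, where 7.39% of all genes differed, 0 of the 14 did (edgeR, 4 at an unadjusted p under 0.05). The count between the lines was 4 at equal depth, 3 at a mean of at least 10 CPM, 2 without ITF1 and 5 without ITM, and that between WT was 0 or 1 in every alternative run, with 0 by DESeq2 and 1 without WT 2.

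Genes chosen because ITF1 was farthest from the other lines also included Cav1, Adamts14, Serpinb9b, Prss23, Ppm1e and Dok5. Cav1, the coat protein of caveolae, had 5.09, 39.3 and 36.8 CPM in WT and 128 CPM in ITF1, and rose against WT (adjusted p = 0.0358, edgeR). The other 5 differed between the lines but were not called in ITF1 against WT. Serpinb9b, related to the granzyme B inhibitor, had 1.70, 22.0 and 35.1 CPM in WT, 78.5 CPM in ITF1, 1.86 CPM in ITM and 4.75 CPM in Rel. In these 6 genes WT 1 was the lowest WT library, as in 63.5% of the 411 genes in which ITF1 was the outlying higher line and 40.2% of all genes tested.

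Rel showed more pigment RNA. Of 14 antigen and pigment genes tested, Rel had 3 higher (Oca2, Trpm1 and Mlana) against a background of 1.51%. Over the 14, the median log2 fold change against WT was 0.854 in Rel, 0.333 in ITM and -0.261 in ITF1. Trpm1, the MITF-driven cation channel, had 305, 113 and 69.9 CPM in WT, 168 CPM in ITF1, 614 CPM in ITM and 994 CPM in Rel (log2 fold change in Rel 2.66, standard error 0.52, adjusted p = 0.021, edgeR). Mlana, a melanoma antigen, had 1146, 1091 and 771 CPM in WT and 1069, 1848 and 2049 CPM in ITF1, ITM and Rel (adjusted p in Rel = 0.0168, edgeR). Without WT 1, the Rel count was 7 of the 14, and without WT 2 or without WT 3 it was 2.

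Antigens of melanoma-reactive lymphocytes were present in every line. Pmel encodes gp100, one of the antigens of the T cells used in the study. It had 4181, 3640 and 2180 CPM in WT and 2113, 5130 and 5769.5 CPM in ITF1, ITM and Rel. Pmel differed between the lines (adjusted p = 0.000185, edgeR) and was not called in any of them against WT. Dct, which encodes TRP2, another such antigen, had 5675 to 8014 CPM in WT. Rel, at 12329 CPM, was above that range while ITF1 and ITM, at 6747 and 8236 CPM, were in or near it. Mitf itself was level in the lines, at 424, 440.0 and 446 CPM, and uneven in WT, at 245, 459 and 620.4 CPM.

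Immediate early genes respond within minutes to growth factors. Of 21 tested, Rel had 2 higher (Egr1 and Fos) and 2 lower (Fosl2 and Klf4) than WT, against backgrounds of 1.51% and 0.523%. Fos had 12.5, 6.33 and 9.38 CPM in WT, 4.76 CPM in ITF1, 10.7 CPM in ITM and 37.5 CPM in Rel (log2 fold change 2.02, standard error 0.21, adjusted p = 0.00109, edgeR). Fosl2 had 23.8 to 29.0 CPM in WT and 12.1 CPM in Rel, with 11.02 CPM in ITM.

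Mgll, the lipase that releases fatty acids from monoacylglycerol, had the smallest p between the lines among genes in which Rel was the outlying line, with 62.3, 14.4 and 13.5 CPM in WT, 9.14 CPM in ITF1, 37.5 CPM in ITM and 575 CPM in Rel. It rose in Rel by a log2 fold change of 4.48 with a standard error of 0.56 (adjusted p = 0.00298, edgeR). Hpse, which encodes heparanase, had 48.7, 10.98 and 10.6 CPM in WT and 118 CPM in Rel. Hsd17b11, a lipid droplet dehydrogenase, had 41.3 to 78.1 CPM in WT and 231 CPM in Rel, with 90.3 CPM in ITF1 and 73.8 CPM in ITM. Mgst1, Tmod1 and Optn were also higher in Rel than in WT, while Blvrb, the last of the 8 genes chosen for Rel, was not called (95 CPM against 16.04 to 66.8 CPM in WT, adjusted p = 0.111, edgeR).

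Some MHC class I genes differed between the lines. H2-K1, a classical heavy chain, had 32.8, 8.87 and 17.0 CPM in WT, 79.9 CPM in ITF1, 11.98 CPM in ITM and 136 CPM in Rel, and was called higher in Rel (log2 fold change 2.89, standard error 0.54, adjusted p = 0.0172, edgeR). B2m, the shared light chain, had 337, 233 and 492 CPM in WT and 447, 256 and 1091 CPM in ITF1, ITM and Rel. Tap2, a subunit of the peptide transporter, ranged from 1.69 to 4.54 CPM in WT and had 8.45, 1.498 and 17.9 CPM in the lines. In these 3 genes Rel was highest and ITM was the lowest line. Of 17 genes of the list, 4 differed between the lines (H2-K1, B2m, Tap2 and Calr) and 1 between WT libraries (Calr), against 10.3% and 7.39% of all genes. Cd274, which encodes the checkpoint ligand PD-L1, followed the same order, at 4.53, 5.07 and 8.37 CPM in WT and 14.97, 4.73 and 29.7 CPM in ITF1, ITM and Rel, and was higher in Rel (adjusted p = 0.0337, edgeR).

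ITM had the fewest calls against WT with all libraries in the fit, though not without WT 1 or without the filter on low counts. Abca12, a lipid transporter of the skin barrier, had 44.7, 51.5 and 20.2 CPM in WT, 21.4 CPM in ITF1, 80.5 CPM in Rel and 441 CPM in ITM (log2 fold change 3.62, standard error 0.34, adjusted p = 0.00472, edgeR), and it also differed between WT libraries (adjusted p = 0.00382, edgeR). Keratinocyte markers, with which Abca12 is usually found, summed to 0 CPM in ITM. Ltbp4, which tethers latent TGF-beta to the matrix, had 13.6, 19 and 30.4 CPM in WT and 3.42 CPM in ITM (adjusted p = 0.017, edgeR).

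The complement proteases C1ra and C1s1 were lower in ITM too. C1ra had 9.62, 4.22 and 8.08 CPM in WT and 1.86 CPM in ITM (adjusted p = 0.0427, edgeR), and C1s1 had 5.66, 2.11 and 3.71 CPM in WT and 0.479 CPM in ITM (adjusted p = 0.0329, edgeR). Of the other genes chosen for ITM, namely Ahnak, Cst6, Vegfa, Tnfrsf11b, Ahnak2, Chn2 and Klf6, none was called against WT. In Ahnak, Cst6 and Tnfrsf11b, WT 1 was far below the other WT libraries, and Ahnak had 4.53, 18.6 and 46.6 CPM in WT against 47.8, 4.13 and 19.7 CPM in ITF1, ITM and Rel.

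The third question was how much the lines differed from each other, with the WT libraries as the measure. In a fit in which each of the 6 libraries had its own coefficient and the spread came from the Lyso and Tumor replicates, 1542 genes differed between the lines (10.3% of those tested) and 1103 between the WT libraries (7.39%). The order turned at equal depth and among well expressed genes. With all 6 libraries thinned to 1667398 counts, 758 genes differed between the lines and 931 between WT. With a mean of at least 10 CPM required, the counts were 893 and 977. With WT 1 left out, WT 2 and WT 3 differed in 39 genes, but WT 2 held only 2350129 counts. WT 1 differed from WT 2 in 894 genes and from WT 3 in 954. Pairs of lines, whose libraries were all deeper than WT 2, differed in 677 (ITF1 and Rel), 679 (ITM and Rel) and 1108 (ITF1 and ITM). Within WT, WT 1 was the outlying library in most calls, with 479 genes higher and 439 lower.

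With the spread taken from the WT libraries alone, 0 genes differed between the lines (edgeR, 701 at an unadjusted p under 0.05), and with that of WT, Lyso and Tumor together 503 did. The genes that varied in both groups numbered 391, which is 25.4% of the calls between the lines and 35.4% of those between WT. Among the calls between the lines, ITF1 was the outlying line in 411 higher and 270 lower genes, ITM in 121 and 440, and Rel in 242 and 58.

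**Figure D3:**
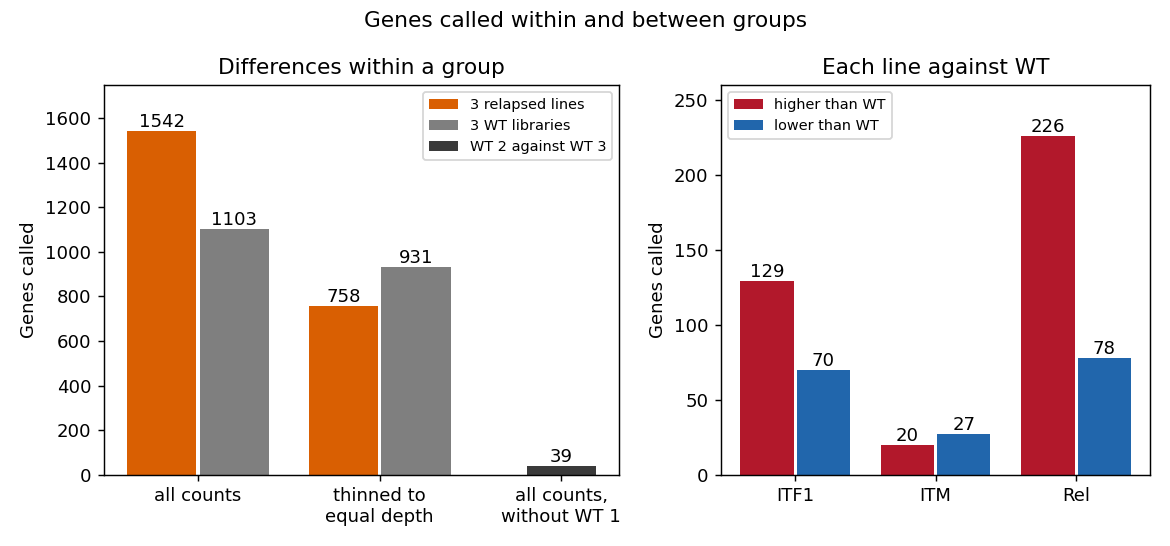
Number of genes called in edgeR's quasi-likelihood test. Left, differences among the 3 relapsed lines and among the 3 WT libraries with all counts (1542 and 1103), after thinning to equal depth (758 and 931), and between WT 2 and WT 3 (39). The other WT pairs, not drawn, gave 894 and 954. Right, each line against WT, higher and lower.

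Gene families were compared by the SD of log2(CPM + 1) over the 3 libraries of a group at equal depth, for 9688 genes with a mean of at least 10 CPM. Over all of these, the median SD was 0.255 in the lines and 0.250 in WT, and 50.2% of genes varied more in the lines. Counting error at this depth enters both SDs, and the WT values include the outlying WT 1. These medians therefore cannot tell whether the cells themselves varied alike. Families were formed by the letters of a symbol before its first digit, with at least 8 members. The 10 with the largest excess in the lines carried the stems Col, Il, Pip, Rpl, Cd, Rps, Pik, A, Sf and Unc, of which A gathers clone names and is no gene family. With another thinning seed, 5 of the 10 remained among the first 10, and with a minimum of 30 CPM 4 did, while Rpl and Rps remained in all 6 alternatives.

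Collagens came first in this order, but not with another seed or a pseudocount of 5, where the stem Il led, and at a mean of at least 3 CPM their median excess was 0.121 in place of 0.268. Of 9 collagen genes past the filter, 8 varied more in the lines, with a median SD of 0.657 against 0.302 in WT. Col4a5, a basement membrane chain, had 22.1, 36.7 and 52.0 CPM in WT and 75.4, 17.9 and 24.2 CPM in ITF1, ITM and Rel. Col15a1 went the other way, with 20.4 to 29.1 CPM in WT, 13.5 CPM in ITF1, 50.03 CPM in ITM and 19.3 CPM in Rel. Thus no line was high in all collagens. On the fixed list of 26 collagens, 11 differed between the lines and 3 between WT libraries, against 10.3% and 7.39% of all genes.

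Ribosomal protein genes moved as a block and by little. All 46 Rpl genes and 37 of 42 genes with the stem Rps, which also takes in a few S6 kinase genes, varied more in the lines, with a median SD of 0.320 against 0.100 for Rpl and 0.271 against 0.118 for Rps. Summed Rpl levels were 15590, 17880 and 16020 CPM in WT, 11980 CPM in ITF1, 17040 CPM in ITM and 12800 CPM in Rel. In summed level ITF1 and Rel thus lay below all 3 WT libraries, and ITM lay among them. Each line was 1 library, and the genes of a family are not replicates of it. Of 70 Rpl genes tested between the lines, 31 had an adjusted p under 0.05 (edgeR). Of these, 0 had fitted levels more than 1 apart on the log2 scale. At an unadjusted p under 0.05 there were 37 of the 70, against 5671 of the 14924 genes tested. The count over all genes at the adjusted p alone was not taken. Ribosomal protein genes have many near-identical copies whose shared reads were not counted.

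Of the other stems, Unc had 9 of 9 members more variable in the lines and Il 6 of 8. Unc5b, a netrin receptor, had 26.6, 20.7 and 31.5 CPM in WT and 5.30, 13.7 and 10.2 CPM in ITF1, ITM and Rel, below WT in every line. Il10rb, a receptor chain for interleukin 10 and interferon lambda, had 55.0 to 69.1 CPM in WT and 125 CPM in Rel. Among the Cd genes, Cd68 and Cd109 varied in both groups, with 1.13, 11.8 and 16.6 CPM of Cd68 in WT and 34.9, 2.34 and 5.82 CPM in ITF1, ITM and Rel.

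Mitochondrially encoded genes also varied more in the lines, in another order than the ribosomal ones. Of 7 tested, 6 had the larger SD in the lines, with a median of 0.411 against 0.100 in WT. Their median log2 fold change against WT was 0.541 in Rel, -0.001 in ITM and -0.286 in ITF1. The cytochrome oxidase gene mt-Co1 had 8369, 8499 and 10341 CPM in WT and 8764, 8609.8 and 14648 CPM in ITF1, ITM and Rel. None of the 7 was called between the lines or between WT (edgeR), with 6 and 1 at an unadjusted p under 0.05. Of all 14924 genes tested, 5671 and 3926 were at that level.

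**Figure D4:**
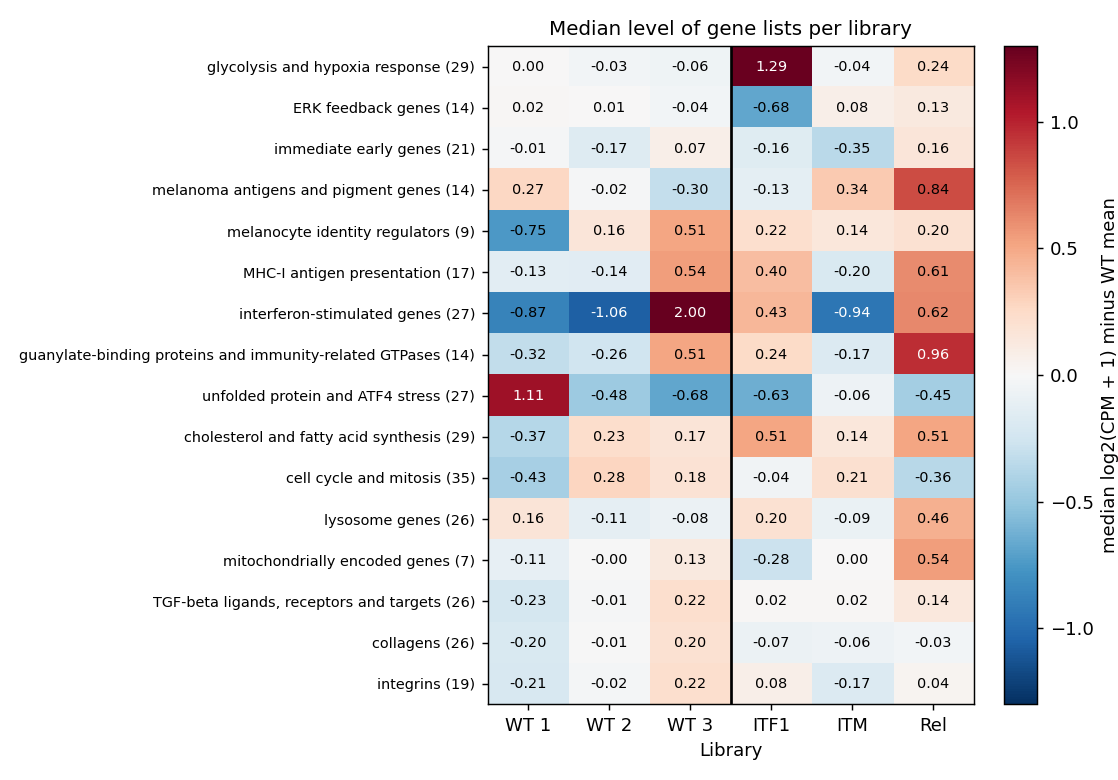
Median over the tested genes of 16 lists (number in parentheses) of log2(CPM + 1) minus the mean of the 3 WT libraries, for each library. Glycolysis and hypoxia genes are high in ITF1 (1.29), pigment genes in Rel, interferon-stimulated genes in WT 3 (2.004) and ATF4 stress genes in WT 1 (1.11).

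Other gene groups varied in WT at least as much as in the lines. Of 27 interferon-stimulated genes, 20 differed between the lines and 21 between WT libraries, against 10.3% and 7.39% of all genes. In any line against WT, 0 were called (edgeR, with 1 in ITF1, 17 in ITM and 0 in Rel at an unadjusted p under 0.05). WT 3 was the highest of the 6 libraries in 25 of the 27, and ITM the lowest line in 26. Isg15, a ubiquitin-like modifier, had 5.09, 3.80 and 48.0 CPM in WT and 9.60, 1.498 and 11.1 CPM in ITF1, ITM and Rel. Ifit1, an RNA-binding antiviral protein, had 7.92, 4.64 and 48.2 CPM in WT and 34.9, 3.35 and 17.5 CPM in the lines. At equal depth 2 of the 27 genes still differed between the lines and 19 between WT, and with WT 3 left out 0 differed between WT (edgeR, 0 also at an unadjusted p under 0.05). Without ITM 3 differed between ITF1 and Rel, and with the spread of WT, Lyso and Tumor 0 differed between the lines (3 unadjusted).

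The interferon response motif (GAAA, any 2 bases, GAAA) was sought on either strand of the 250 bases before the start. Of the list genes with a listed promoter, 16 were called between the lines or between the WT libraries, and 8 of these held it (50%). The motif was found in 0 of 3 genes of the list called in neither and in 276 of 10464 genes tested (2.64%). Stretches of 3 of the 8 are given along the gene's strand, with the motif in capitals (TTTC, any 2 bases, TTTC where it lies on the other strand), since Isg15 and Ifit1 are described above.
Isg15 (chr4:156200877-156200906, minus strand): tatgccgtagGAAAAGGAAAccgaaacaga
Ifit1 (chr19:34640775-34640804, plus strand): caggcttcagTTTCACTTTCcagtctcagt
Ifit3 (chr19:34583363-34583392, plus strand): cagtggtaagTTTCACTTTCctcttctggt

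Genes of the unfolded protein response and of ATF4 varied in both groups, with more calls between the WT libraries than between the lines. Of 27 tested, 23 differed between WT libraries, in all 23 of which WT 1 was the highest, and 16 differed between the lines. Over all genes, 7.39% differed between WT libraries and 10.3% between the lines. Trib3, a pseudokinase induced by ATF4, had 501, 10.98 and 11.2 CPM in WT and 26.1, 19.5 and 12.9 CPM in ITF1, ITM and Rel. Asns, asparagine synthetase, had 617, 114 and 100.2 CPM in WT and 132, 218 and 149 CPM in the lines. With WT 1 left out, 0 of the 27 differed between WT (edgeR, 9 at an unadjusted p under 0.05). Sterol and fatty acid synthesis genes differed in 3 of 29 between the lines (10.3%, the share of all genes) and in 11 of 29 between WT (37.9%). Cell cycle genes differed in 5 of 35 (14.3%) and 10 of 35 (28.6%).

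Adhesion and matrix lists did not all run the same way, against the 10.3% and 7.39% of all genes. Of 21 focal adhesion genes, 1 differed between the lines and 5 between WT. Of 19 integrins, 4 differed between the lines and 1 between WT, and of 10 calpains, the family of Capn6, 5 and 1. Itgb3, the integrin subunit that pairs with alpha V like Itgb5, had 24.9, 24.9 and 38.5 CPM in WT and 19.5, 12.7 and 57.2 CPM in ITF1, ITM and Rel, so its order among the lines was unlike that of Itgb5. The counts were 10 and 7 of 27 for matrix genes other than collagens, 7 and 3 of 20 for matrix proteases and their inhibitors, and 10 and 8 of 26 for the TGF-beta list. Among lists of growth and survival, they were 8 and 5 of 25 for receptor tyrosine kinases, 7 and 6 of 21 for p53 targets, 3 and 4 of 14 for the BCL2 family and 5 and 6 of 26 for lysosome genes. These differences between counts were not tested.

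Along the genome, the median level of neighboring genes was not even in ITF1 and Rel. Chromosome 3 was lower, with a median log2 ratio to WT of -0.16 in ITF1 and -0.19 in Rel over 482 genes, against -0.06 in ITM and between -0.06 and 0.03 in each WT library set against the other WT libraries. Chromosome 8 was higher, at 0.10 in ITF1, 0.14 in Rel and 0.05 in ITM, with WT between -0.02 and 0.04. On chromosome 13 ITF1 and Rel were both at 0.13 (0.10 and 0.07 with WT 3 alone as the reference), but WT 1 and WT 3 differed there as well, at -0.10 and 0.08. No test was made, because genes are not replicates, and DNA was not measured in these files.

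Each chromosome was then split into 8 bins of equal gene number. Of 160 bins, 8 in ITF1, 11 in Rel, 0 in ITM, 4 in WT 1 and 0 in WT 2 and WT 3 had a median of at least 0.2 in size. On chromosome 3 they were bins 3, 4, 7 and 8, counted from the start, in both ITF1 and Rel. In the eighth bin (135584655 to 159938664), with 60 genes, the median was -0.27 in ITF1 and -0.30 in Rel, and 10 and 7 of the genes lay above the genome's median. The highest bin in both lines was the second of chromosome 8 (23256635 to 47552955), where the medians were 0.29 in ITF1, 0.36 in Rel and 0.13 in ITM over 69 genes. Rel alone had the end of chromosome 1, in whose seventh bin (161816114 to 178322693) it reached 0.305 against 0.04 in ITF1 and -0.02 in ITM. ITF1 alone reached 0.28 in the sixth bin of chromosome 13, where Rel was at 0.14 and WT 3 at 0.14.

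**Figure D5:**
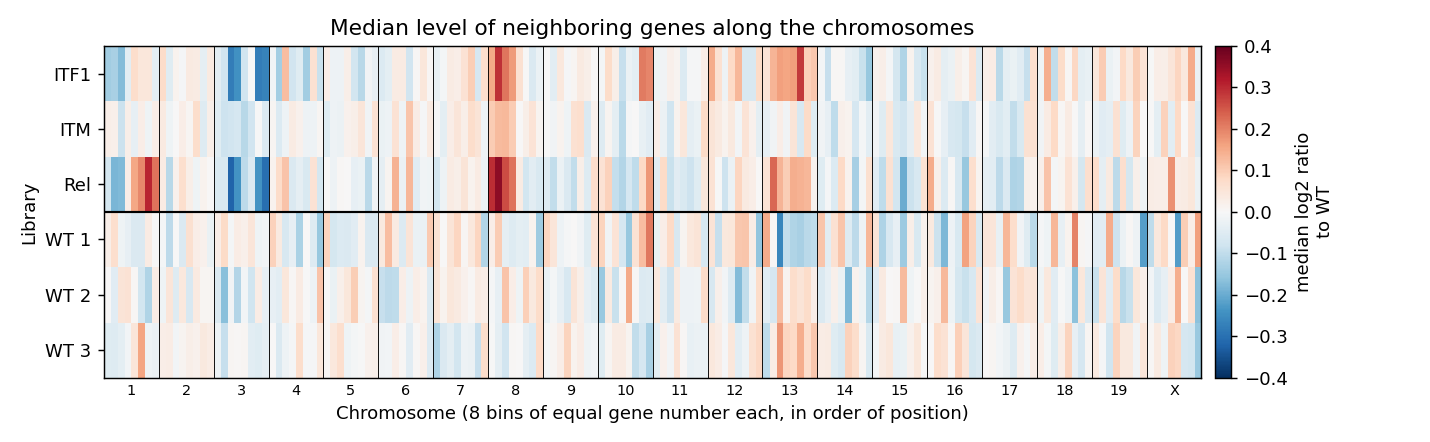
Median log2 ratio to WT of the genes in 8 consecutive bins of each chromosome, in the 3 relapsed lines and in each WT library against the other WT libraries. ITF1 and Rel share low bins on chromosome 3 and high bins among the first 4 of chromosome 8, where ITM is weakly high (0.13 at most).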

How the data were processed

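RNA-seq of the 3 relapsed lines and 3 WT libraries was analysed, with the Lyso and Tumor libraries (3 each) only as a source of spread. Per the submitters' processing notes and the paper, the authors used fastp 0.19.6, STAR 2.7.1a and GRCm38 and deposited raw counts per gene, without normalization; the strand setting and annotation release were not given in the sources used here. The 4 rows that name no gene were dropped (between 43.53% and 44.77% of reads in a library fell on no feature). Symbols and positions came from GENCODE for GRCm38 (54165 of 54232 identifiers matched) and promoters from RefSeq.

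Counts were analysed with edgeR 4.0.16 in R 4.3.3 (TMM, filterByExpr, glmQLFit, glmQLFTest, Benjamini-Hochberg adjustment), as whole tables, and with DESeq2 1.42.0 as an alternative. Calls needed an adjusted p under 0.05 and a log2 fold change (or range of fitted values) over 1. CPM values are TMM-scaled. Standard errors were derived from each gene's F statistic. The floor of 3 counts stands for 0.177 to 1.7 CPM on this scale. Family spread used libraries thinned without replacement to 1667398 counts (seed 1), a pseudocount of 1 and at least 10 CPM; chromosome medians used the same minimum without thinning. Scripts were tested on simulated data. No library pair within WT or the lines agreed within sampling noise (chi-square per degree of freedom at least 5.1).

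Named genes were those called between lines and WT; the next 8 in each direction by p with groups apart and at least 1 CPM; the 8 per line with the smallest p between lines; 10 stems; called members of 40 lists; and 4 antigens. One gene is not reported here. Members, lists and rules were chosen with earlier results of these data known; the bins and promoter windows were chosen after values were seen. Alternatives were other normalizations, filters, tools, sources of spread, depth, seeds and left-out libraries.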

Additional observations from a re-analysis of the deposited data

Results flagged for a closer look

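Hmcn1, Megf6 and Oca2 (3 genes) were called in opposite directions in different lines against the shared WT libraries, and the test between the lines found a difference in each. Hmcn1, a large basement membrane protein, had 28.3, 30.4 and 34.4 CPM in WT, 12.6 CPM in ITF1, 47.7 CPM in ITM and 63.8 CPM in Rel (adjusted p between the lines = 0.000102, edgeR). Megf6, an EGF-repeat protein, had 22.6, 32.9 and 19.3 CPM in WT, 7.99 CPM in ITF1, 70.8 CPM in ITM and 48.0 CPM in Rel (adjusted p = 5.63e-06, edgeR). Oca2, a melanosome channel, had 50.4, 44.8 and 40.2 CPM in WT, 20.7 CPM in ITF1, 55.5 CPM in ITM and 139 CPM in Rel (adjusted p = 7.15e-06, edgeR). In all 3, ITF1 was lower than WT, Rel was higher, and the WT libraries did not differ by the same test. Megf6 was also called higher in ITM.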

How the results depend on the processing

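No paired analysis was possible because the labels pair no relapsed line with a WT library. Genes higher and lower in the lines numbered 2 and 4; without a filter on low counts they were 139 and 126, with DESeq2 48 and 54, with only WT and the lines fitted 0 and 0 (edgeR, 642 at an unadjusted p under 0.05), and after thinning 0 and 0 (1510); at a mean of at least 10 CPM 1 gene was higher. With each library left out in turn they ran from 0 to 78 and from 0 to 43. Genes that differed between the lines (1542) were 893 at a mean of at least 10 CPM, 966 with DESeq2, 758 after thinning, 503 with the spread of WT, Lyso and Tumor and 0 with that of WT alone (edgeR, 701 unadjusted), and between 677 and 1108 for pairs of lines; between WT libraries (1103) pairs gave 39 to 954. With the spread of the Tumor or of the Lyso replicates alone, chosen after seeing the data, the counts were 1134 and 1740 between the lines and 791 and 1162 between WT. Totals for ITF1, ITM and Rel were 398, 415 and 630 without a filter and 116, 27 and 169 at a mean of at least 10 CPM, and ITM had 159 with DESeq2; without single WT libraries they ran from 160 to 432, 11 to 557 and 202 to 890. The share of genes more variable in the lines was 46.3% without thinning, 51.2% with another seed and 51.7% at 30 CPM, and 5, 5 and 4 of the 10 stems were kept with another seed, at 3 CPM and at 30 CPM. The medians of chromosomes 3, 8 and 13 in ITF1 and Rel moved by less than the spread among WT libraries, the widest shift being chromosome 13 in Rel, from 0.13 to 0.07 with WT 3 alone as the reference. Directions of Capn6, Itgb5, Tns1, Tgfb3 and Masp1 were kept wherever they had a value (Tns1 had none at a mean of at least 10 CPM). The causes of these shifts were not tested. Depth limits WT 1 and WT 2, where 3 counts stand for up to 1.7 CPM.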
